A study of Mus musculus with 4 samples.

Results

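The 41 genes described here encode enzymes that burn pyruvate and branched-chain amino acids in mitochondria: 14 of the citric acid (TCA) cycle, 11 of pyruvate import and oxidation, 2 aspartate aminotransferases and 14 of branched-chain amino acid and propionyl-CoA breakdown. They were chosen by gene name, and each matched 1 of the 48432 gene rows of the authors' expression table. Polyadenylated RNA had been sequenced from cardiomyocytes, the contractile heart cells, which were released from mouse hearts by Langendorff perfusion. There were 2 groups of 2 libraries: MHC, the control, and Rbfox2_OE, labelled as overexpressing Rbfox2, a gene for an RNA-binding regulator of splicing. They are called control and overexpressing cells below. Both groups had the strain label C57BL x FVB and a doxycycline diet of 3 days, so doxycycline is common to control and overexpressing mice. The labels expand neither MHC nor name the promoter that drives Rbfox2, and the animals' age and sex are not given in the sources used here.

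The table gives 1 pooled FPKM value per gene and group (fragment counts corrected for transcript length and for library size), with the authors' lower and upper bounds, and no value per library. No spread between replicates could therefore be computed and no test between the groups was possible. Each comparison below is a description by 2 rules: a 2-fold difference on the log2(FPKM + 1) scale, and bounds of the groups that do not overlap. What confidence level these bounds have is not given, and the sequencing depth is unknown. Rbfox2 stood at 14.7 FPKM in control cells (bounds 10.4 to 19.0) and 293 FPKM in overexpressing cells (bounds 214 to 373), which matches the labels. In bulk RNA a lower value can come from fewer cells of a type or from less RNA per cell, and these cannot be told apart.

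The TCA cycle oxidizes acetyl-CoA in the mitochondrial matrix and passes the electrons to the respiratory chain. Pyruvate enters it through the mitochondrial pyruvate carrier and the pyruvate dehydrogenase complex, which pyruvate dehydrogenase kinases switch off by phosphorylation and phosphatases switch back on. Leucine, isoleucine and valine are transaminated, decarboxylated by a sister complex and broken down to acetyl-CoA, acetoacetate or succinyl-CoA. The adult heart runs mostly on fatty acids, and these enzymes share its oxidative capacity between fuels.

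As deposited, 40 of the 41 genes had a lower value in overexpressing cells than in control cells, and the exception was the kinase gene Pdk4. The median log2 ratio was -0.57, with a range from -2.40 for Auh to 0.43 for Pdk4, while the 11697 genes compared, those averaging 1 FPKM or more, had a median of -0.06 and 53.8% of them lay below 0. At least 2-fold lower were 8 of the 41 genes (19.5%), against 10% (1172) of the 11697 genes compared. None of the 41 was 2-fold higher, against 6.97% of all genes. The bounds were separate for 9 genes (22.0%), all lower in overexpressing cells, against 9.33% of all genes for lower and 6.67% for higher values. Both rules were met by 7 genes: Auh, Mccc2, Idh2, Pdk1, Ogdh, Idh3a and Pdhb. Dld and Pdp1 had separate bounds but were short of 2-fold, and Pcca was past 2-fold with bounds that overlapped. The 2-fold call of Pdhb and the separate bounds of Dld did not hold when the groups were centred on the median gene or rescaled without mitochondrial and the 10 most abundant genes, and those of Pdp1 did not hold under the latter.

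The 41 genes are abundant in these cells: all had a mean of at least 7.98 FPKM, and in control cells 39 of them ranked at least as high as the 81.5th percentile of the genes compared. Among the 5905 genes at least as abundant as the lowest of them, the background was slightly different. There 12.7% were 2-fold lower and 6.33% 2-fold higher, while 11.4% had separate bounds with lower values and 5.69% with higher values. Summed over the 41 genes, the level was 12938 FPKM in control cells and 8450 FPKM in overexpressing cells, or 2.52% and 1.89% of all FPKM.

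**Figure D1:**
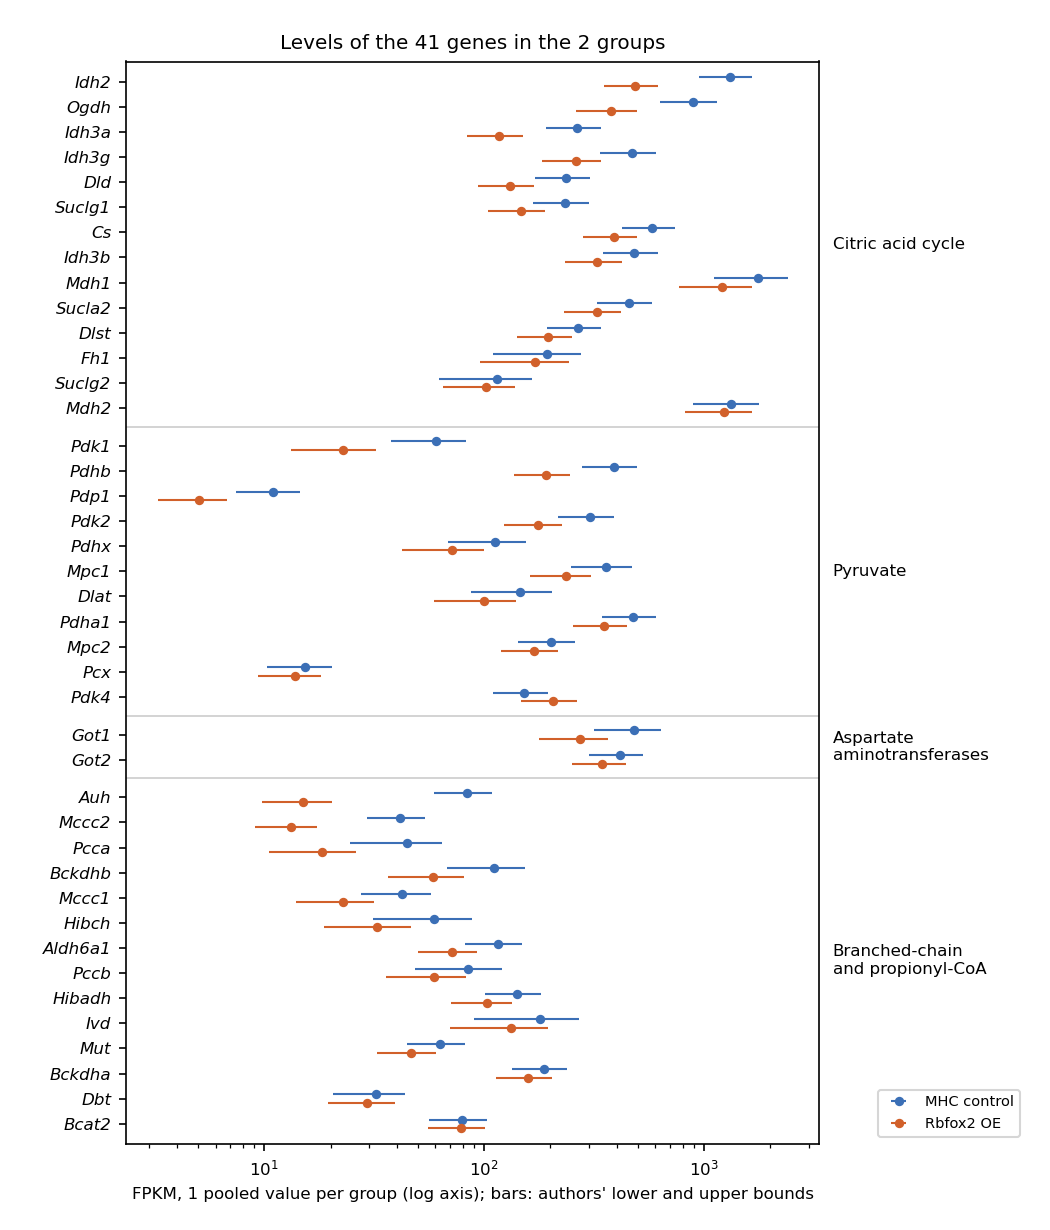
FPKM of each of the 41 genes (log axis) in the MHC control (blue) and in overexpressing cells (orange), 1 pooled value per group, with bars for the authors' lower and upper bounds. Auh and Mccc2 show the widest gaps between groups, and Pdk4 is the gene whose orange point lies to the right of the blue one.

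Markers of other cells and of the cardiomyocytes themselves also differed between the groups. Of 12 cardiomyocyte markers, 11 had an estimate in both groups and Myh6 was listed at 0 in both for lack of one. The summed level of these markers was 59735 FPKM in control cells and 37796 FPKM in overexpressing cells, and their median log2 ratio was -0.65. Single markers differed widely: Pln stood at 2613 and 488 FPKM, Myl2 at 24688 and 18007 FPKM, and Ttn at 166 and 252 FPKM. Markers of other cells were higher in overexpressing cells. All 8 fibroblast markers had ratios above 0 and their sum went from 213 to 504 FPKM. All 8 macrophage and leukocyte markers did as well, with a sum of 109 and 376 FPKM, as did all 8 endothelial markers (220 and 387 FPKM), all 7 smooth muscle and pericyte markers (145 and 326 FPKM) and all 5 red blood cell markers (56.6 and 295 FPKM). The 6 markers of atrial cardiomyocytes summed to 242 FPKM in control cells and 3161 FPKM in overexpressing cells, Nppa alone accounting for 118 and 2178 FPKM. More atrial cells and higher levels per cardiomyocyte cannot be told apart here. None of the markers of other cells or of atrial cardiomyocytes was at 0 in either group. Their part in the lower values of the 41 genes was not tested.

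**Figure D2:**
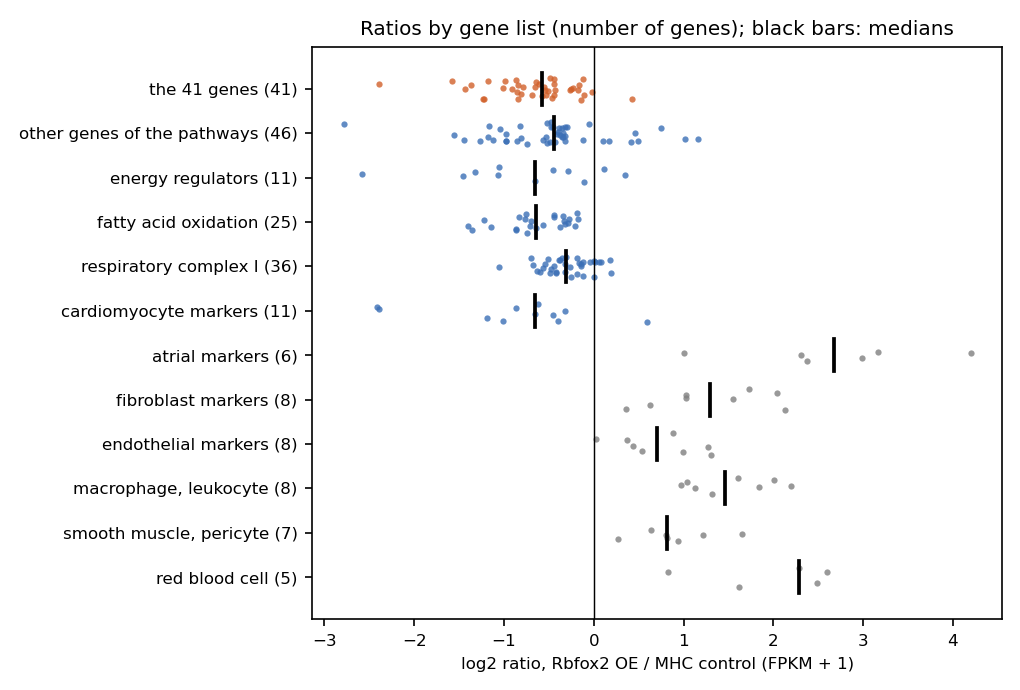
log2 ratios of overexpressing over control cells (horizontal axis, FPKM + 1) for single genes (points) of each list, with the number of genes in brackets and black bars for the medians. The 41 genes centre at -0.57, near the cardiomyocyte markers at -0.65, while the lists of atrial and other cells centre above 0.

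A change of scale adds nearly the same amount to the log2 ratio of every abundant gene. When the values of overexpressing cells were multiplied by 1.58, which makes the 11 cardiomyocyte markers sum to the same level, the median of the 41 genes moved to 0.086 and 18 of them lay below 0. On this scale, chosen after the data were seen, the median of all genes compared was 0.51. Auh (log2 ratio -1.77) and Mccc2 (-0.96) still had lower values with separate bounds, and Pdk4 was higher with separate bounds, at 1.09. The other genes had overlapping bounds on that scale. Of all genes compared, 3.23% were 2-fold lower there and 2.78% had separate bounds with lower values. Most 2-fold differences among all genes were higher ones there, so being higher, as Pdk4 was, did not set a gene apart. Among all genes, the share of 2-fold differences that were lower was 59.0% as deposited, 46.3% after rescaling without mitochondrial and the 10 most abundant genes, and 12.2% after rescaling to the cardiomyocyte markers. With the mitochondrial and most abundant genes left out of the scaling, 36 of the 41 genes lay below 0, and 39 did after centring on the median gene. The ratios below are as deposited unless another scale is named.

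**Figure D3:**
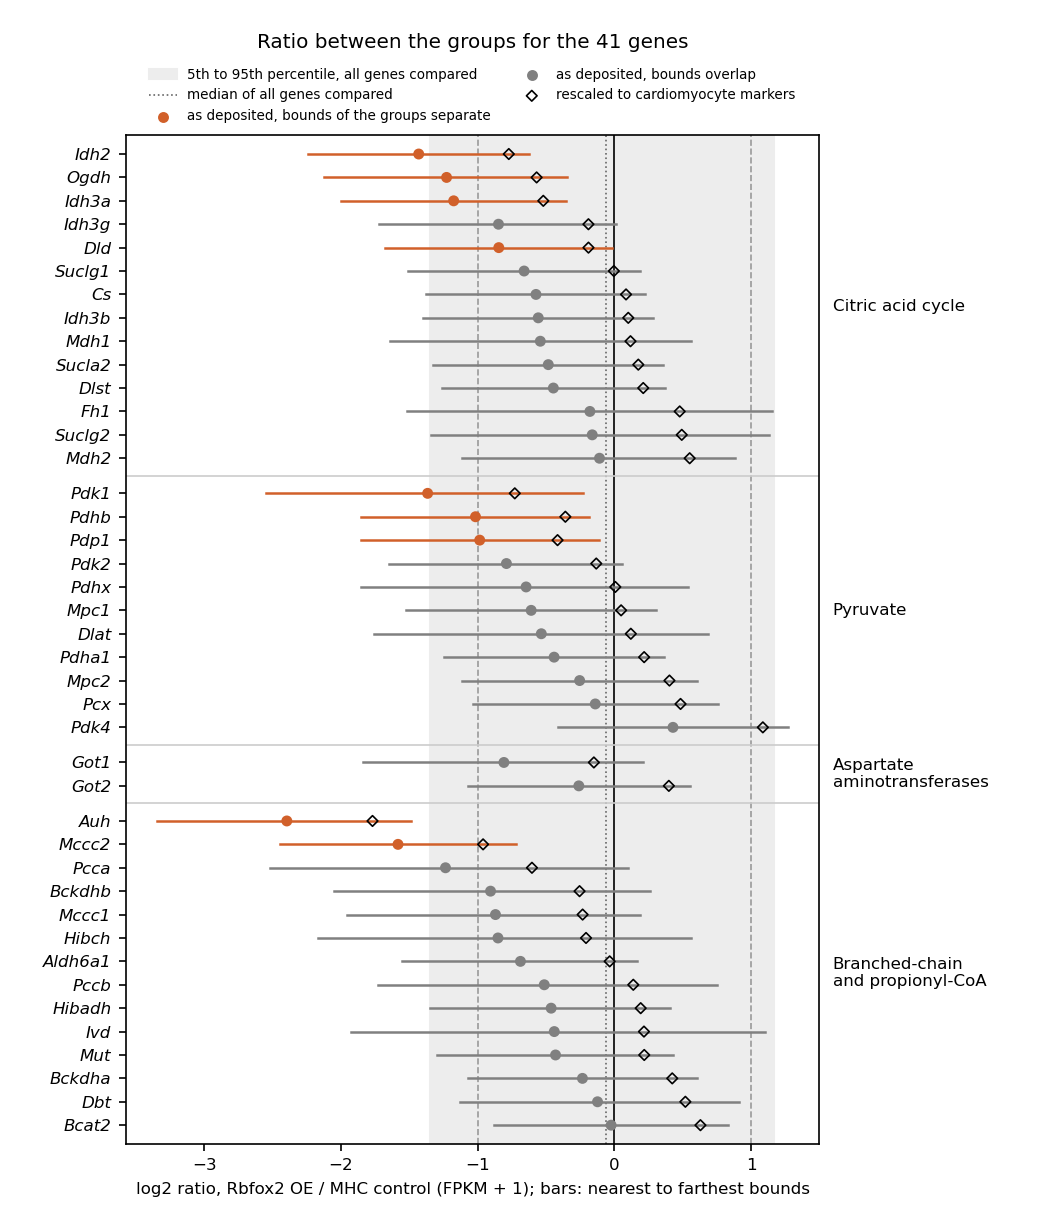
log2 ratio of overexpressing over control cells for each gene as deposited (filled points, orange where the groups' bounds were separate) with bars from the nearest to the farthest pair of bounds, and after rescaling to the cardiomyocyte markers (open diamonds). The grey band is the 5th to 95th percentile of all genes compared, -1.35 to 1.17; after rescaling most diamonds gather around 0, with Auh and Mccc2 to the left and Pdk4 to the right.

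In the TCA cycle, all 14 genes had a lower value in overexpressing cells. At least 2-fold lower were 3 of them (21.4%), against 10% of all genes compared and 12.7% of the 5905 abundant genes. Separate bounds were found for 4 (28.6%), against 9.33% and 11.4% with lower values. Idh2 (GRCm38 chromosome 7, 80094846 to 80115392, minus strand), the NADP-dependent isocitrate dehydrogenase of the matrix, stood at 1304 FPKM in control cells (bounds 952 to 1657) and 483 FPKM in overexpressing cells (bounds 349 to 617). That is 37.0% of the control value and a log2 ratio of -1.43, and the bounds lay far apart. Ogdh (chromosome 11, 6291633 to 6356642, plus strand), the decarboxylating subunit of the 2-oxoglutarate dehydrogenase complex, stood at 888 FPKM (bounds 629 to 1148) and 379 FPKM (bounds 262 to 495). Its log2 ratio was -1.23. The other subunits of that complex differed less. Dlst, its succinyltransferase, stood at 267 and 196 FPKM with overlapping bounds. Dld, the dihydrolipoamide dehydrogenase shared with the pyruvate and branched-chain complexes, stood at 236 FPKM (bounds 170 to 301) and 131 FPKM (bounds 93.7 to 168), with bounds just separate. The Dlst level was 0.301 of the Ogdh level in control cells and 0.517 of it in overexpressing cells. Between the farthest and the nearest bounds their log2 ratios overlapped, from -2.13 to -0.34 for Ogdh and -1.26 to 0.37 for Dlst.

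The NAD-dependent isocitrate dehydrogenase, a regulated step of the cycle, is built of a catalytic subunit and regulatory ones. The catalytic subunit gene Idh3a (chromosome 9, 54586334 to 54604661, plus strand) stood at 265 FPKM (bounds 192 to 338) in control cells and 117 FPKM (bounds 83.5 to 150) in overexpressing cells, a log2 ratio of -1.18. Its bounds were separate, which was not so for the partner subunits. Idh3g stood at 470 and 261 FPKM (log2 ratio -0.85), and its bounds overlapped narrowly, with a control lower bound of 336 and an upper bound in overexpressing cells of 338. Idh3b stood at 482 and 327 FPKM (log2 ratio -0.56). The ratio of Idh3a to Idh3b was thus 0.550 in control cells and 0.357 in overexpressing cells. Between the farthest and the nearest bounds the log2 ratios of these subunits overlapped. They ran from -2.00 to -0.35 for Idh3a, -1.72 to 0.01 for Idh3g and -1.40 to 0.28 for Idh3b.

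The remaining TCA cycle genes had overlapping bounds. Cs, the citrate synthase that opens the cycle, stood at 578 and 388 FPKM. Among the subunits of succinyl-CoA synthetase, Suclg1, the shared one, stood at 232 and 147 FPKM, the ADP-forming Sucla2 at 454 and 324 FPKM, and the GDP-forming Suclg2 at 114 and 102 FPKM. Fh1, the fumarase, stood at 192 and 170 FPKM. Mdh2, the malate dehydrogenase of the matrix, differed least of the 14, at 1330 and 1234 FPKM (log2 ratio -0.11). Its cytosolic partner Mdh1 stood at 1752 and 1203 FPKM (log2 ratio -0.54), so the level of Mdh1 was above that of Mdh2 in control cells and just below it in overexpressing cells, at a ratio of 1.32 and 0.975. The bounds of Mdh1 and Mdh2 also overlapped within each group.

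The pyruvate genes fall into carriers, the dehydrogenase complex, its kinases and phosphatase, and a carboxylase. The carrier subunits Mpc1 and Mpc2 stood at 358 and 201 FPKM in control cells and at 235 and 168 FPKM in overexpressing cells, with overlapping bounds. In the dehydrogenase complex, Pdhb (chromosome 14, 8165996 to 8173025, minus strand), the beta subunit of the decarboxylating component, stood at 387 FPKM (bounds 279.5 to 495) and 191 FPKM (bounds 137 to 245). Its log2 ratio of -1.02 was just past the 2-fold line as deposited, and it fell short of it at -0.95 and -0.86 when centred on the median gene or rescaled without the most abundant and mitochondrial genes. The alpha subunit gene Pdha1 stood at 474 and 349 FPKM (log2 ratio -0.44). Pdhb thus amounted to 0.818 of Pdha1 in control cells and 0.548 of it in overexpressing cells. Between the farthest and the nearest bounds their log2 ratios overlapped, from -1.85 to -0.19 for Pdhb and -1.25 to 0.37 for Pdha1. The acetyltransferase gene Dlat stood at 145 and 99.7 FPKM and Pdhx, which tethers Dld to the complex, at 112 and 71.3 FPKM. Bounds overlapped for Pdha1, Dlat and Pdhx.

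Of the pyruvate dehydrogenase kinase genes, Pdk1 was lower by both rules, while Pdk2 and Pdk4 met neither. Pdk4 (chromosome 6, 5483351 to 5496309, minus strand), the isoform known to be induced by fasting and fatty acids, stood at 152 FPKM in control cells (bounds 109 to 195) and 205 FPKM in overexpressing cells (bounds 147 to 264), a log2 ratio of 0.43 with overlapping bounds. Pdk1 (chromosome 2, 71873224 to 71903858, plus strand), known as a target of hypoxia signalling, stood at 60.1 FPKM (bounds 37.8 to 82.4) and 22.7 FPKM (bounds 13.2 to 32.1), a log2 ratio of -1.37 with separate bounds. Pdk2, the most abundant kinase gene of control cells, stood at 303 and 175 FPKM, and its bounds overlapped (217 to 388 and 123 to 226). Pdk3, outside the 41 genes, was near 1 FPKM in both groups, at 0.745 and 1.32 FPKM. Of the summed FPKM of these kinase genes, Pdk2 held 58.7%, Pdk4 29.5% and Pdk1 11.6% in control cells, and Pdk2 43.2%, Pdk4 50.8% and Pdk1 5.62% in overexpressing cells. The pooled value of Pdk2 was thus the higher one in control cells, where the bounds of Pdk2 and Pdk4 were separate, and that of Pdk4 in overexpressing cells, where their bounds overlapped. The ratio of Pdk4 to Pdk2 was 0.503 in control cells and 1.18 in overexpressing cells.

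The phosphatase gene Pdp1, whose product reverses the kinases' action, was low in both groups, at 10.9 FPKM (bounds 7.41 to 14.5) in control cells and 5.03 FPKM (bounds 3.27 to 6.79) in overexpressing cells. Its bounds were separate and its log2 ratio of -0.99 was just short of the 2-fold line, since the added 1 FPKM weighs on a low gene: the plain ratio was 46.0% of control. Pcx, the pyruvate carboxylase that refills oxaloacetate, was also low, at 15.3 and 13.8 FPKM (log2 ratio -0.14).

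The aspartate aminotransferases link the cycle to amino acids and to the malate-aspartate shuttle. The cytosolic enzyme gene Got1 stood at 478 and 273 FPKM (log2 ratio -0.81) and the mitochondrial Got2 at 413 and 345 FPKM (log2 ratio -0.26), both with overlapping bounds. As with Mdh1 and Mdh2, the cytosolic member had the higher pooled value in control cells, at a ratio of 1.16, and the lower one in overexpressing cells, at 0.791. Within each group the bounds of Got1 and Got2 overlapped.

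Branched-chain breakdown held the largest differences of the 41 genes, both in the leucine branch. Auh (chromosome 13, 52835119 to 52929681, minus strand), the methylglutaconyl-CoA hydratase of leucine breakdown, which also binds AU-rich RNA, stood at 83.7 FPKM in control cells (bounds 58.9 to 108) and 15.1 FPKM in overexpressing cells (bounds 9.78 to 20.4). That is 5.55-fold lower, a log2 ratio of -2.40, and from -3.34 to -1.49 between the farthest and the nearest bounds. Mccc2 (chromosome 13, 99948530 to 100015639, minus strand), the beta subunit of methylcrotonyl-CoA carboxylase, stood at 41.6 FPKM (bounds 29.2 to 53.9) and 13.2 FPKM (bounds 9.07 to 17.3), 3.15-fold lower and a log2 ratio of -1.58. These enzymes act on successive intermediates of leucine. The alpha subunit Mccc1 stood at 42.4 FPKM (bounds 27.5 to 57.2) and 22.7 FPKM (bounds 14.0 to 31.4), and its bounds overlapped. The pooled value of Mccc2 was 0.981 of that of Mccc1 in control cells and 0.581 of it in overexpressing cells. Within each group the bounds of Mccc1 and Mccc2 overlapped. Ivd, the isovaleryl-CoA dehydrogenase that precedes them, stood at 180 and 132 FPKM with wide, overlapping bounds.

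The genes of the first steps of the pathway met neither rule. Bcat2, the mitochondrial branched-chain aminotransferase, stood at 79.3 and 78 FPKM, the smallest difference of the 41 genes (log2 ratio -0.02). In the branched-chain ketoacid dehydrogenase, Bckdha stood at 186 and 158 FPKM, the transacylase gene Dbt at 32.1 and 29.4 FPKM, and Bckdhb at 111 and 58.6 FPKM. Bckdhb, the beta subunit, differed most of that complex (log2 ratio -0.91), as the beta subunit Pdhb did within pyruvate dehydrogenase, although the Bckdhb bounds overlapped.

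In the valine branch, Hibch, a thioesterase, stood at 59.4 and 32.4 FPKM, Hibadh, a dehydrogenase, at 141 and 102 FPKM, and Aldh6a1, a semialdehyde dehydrogenase, at 115 and 71.1 FPKM. In the propionyl-CoA steps shared by valine and isoleucine, Pcca (chromosome 14, 122534324 to 122891100, plus strand), the biotin-carrying subunit of propionyl-CoA carboxylase, stood at 44.5 FPKM (bounds 24.4 to 64.5) and 18.3 FPKM (bounds 10.5 to 26.2). Its log2 ratio of -1.24 was past the 2-fold line, but its bounds overlapped. The partner subunit gene Pccb stood at 84.6 and 59.0 FPKM and Mut, the methylmalonyl-CoA mutase, at 63.0 and 46.5 FPKM. Apart from Auh and Mccc2, none of the 14 branched-chain genes had separate bounds. These are 14.3% of that list, against 9.33% of all genes compared with separate bounds and lower values.

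**Figure D4:**
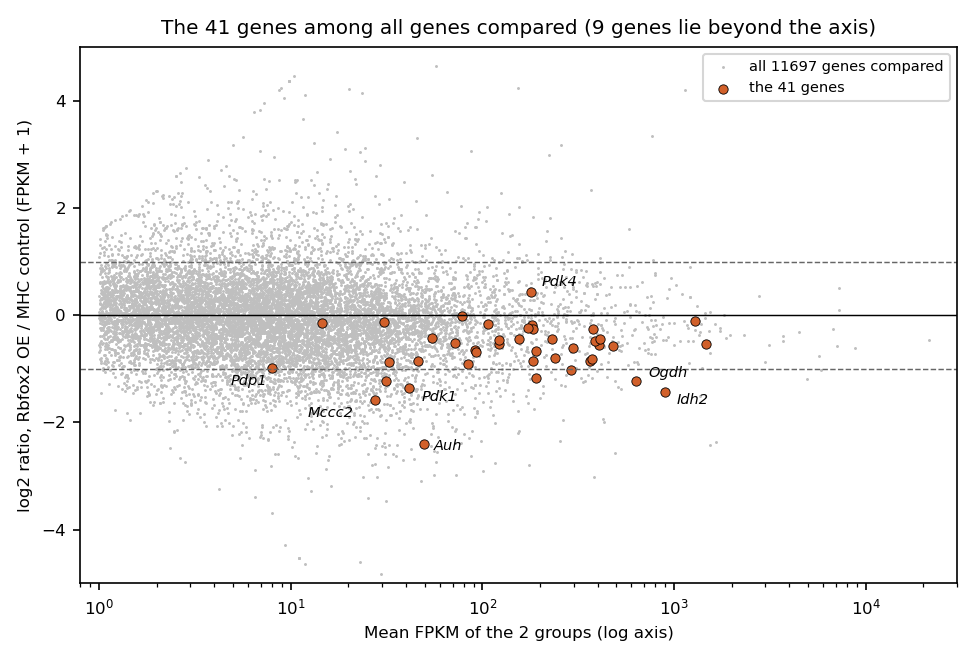
log2 ratio of overexpressing over control cells against the mean FPKM of both groups (log axis) for the 11697 genes compared (grey) and the 41 genes (orange), with dashed lines at 2-fold; 9 genes lie beyond the axis. The 41 genes sit in the more abundant part of the transcriptome and mostly below 0, with Auh lowest and Pdk4 highest among them.

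Other genes of the same pathways, on a list of 47 genes of which 46 reached a mean of 1 FPKM, had a median log2 ratio of -0.44. Of these, 8 were 2-fold lower and 8 had separate bounds with lower values, while 2 were 2-fold higher and 1 had separate bounds with higher values. The lower calls were 17.4% of the 46 genes by each rule taken alone, against 10% and 9.33% of all genes compared. Of all genes compared, 6.97% were 2-fold higher and 6.67% had separate bounds with higher values. After rescaling to the cardiomyocyte markers the median of this list was 0.18, below the 0.51 of all genes compared. On that scale 1 gene was 2-fold lower and 4 higher, with separate bounds for 1 lower and 5 higher. Of all genes compared, 3.23% were 2-fold lower there and 2.78% had separate bounds with lower values. Only 12.2% of their 2-fold differences were lower. Past both rules were Slc25a13, Pdpr, Gpt2, Slc25a12, Sdha, Oxct1 and Me3 on the lower side and Slc25a10 on the higher. The carriers Slc25a13 and Slc25a12 exchange aspartate for glutamate in the malate-aspartate shuttle. Slc25a13 stood at 47.1 FPKM (bounds 32.8 to 61.5) in control cells and 5.98 FPKM (bounds 3.56 to 8.40) in overexpressing cells, a log2 ratio of -2.79, and Slc25a12 at 112 and 45.8 FPKM (log2 ratio -1.27). The 2-oxoglutarate carrier of that shuttle, Slc25a11, stood at 246 and 176 FPKM with overlapping bounds. Pdpr, a regulatory subunit of pyruvate dehydrogenase phosphatase, stood at 31.2 and 9.93 FPKM (log2 ratio -1.56). Sdha, the flavoprotein of succinate dehydrogenase, stood at 516 and 228 FPKM. Oxct1, which activates ketone bodies, stood at 456 and 203 FPKM. Slc25a10, the dicarboxylate carrier, stood at 6.59 FPKM (bounds 4.28 to 8.90) and 14.3 FPKM (bounds 9.82 to 18.9).

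The regulators of the branched-chain dehydrogenase did not have separate bounds: its kinase gene Bckdk stood at 97.5 and 54.7 FPKM, and its phosphatase gene Ppm1k at 31.5 and 21.6 FPKM with lower bounds of 0. Of 11 transcriptional regulators of energy metabolism, 5 were 2-fold lower, 4 of them with separate bounds, and none was 2-fold higher. These are 45.5% and 36.4% of the list, against 10% and 9.33% of all genes compared. After rescaling to the cardiomyocyte markers 1 regulator was 2-fold lower and 1 had separate bounds, against 3.23% and 2.78% of all genes compared. The median of the regulators moved from -0.66 to -0.03, where that of all genes was 0.51. Esrrg, an orphan nuclear receptor that drives mitochondrial genes in the heart, stood at 14.9 FPKM (bounds 9.46 to 20.4) and 1.66 FPKM (bounds 0.956 to 2.37), a log2 ratio of -2.58. Its coactivator Ppargc1a stood at 57.4 FPKM (bounds 32.3 to 82.5) and 20.3 FPKM (bounds 13.4 to 27.1). Perm1 stood at 163 and 77.5 FPKM and Esrrb at 16.0 and 7.15 FPKM, both with separate bounds. Ppara, the fatty acid sensing receptor, stood at 17.7 and 6.47 FPKM with overlapping bounds. Esrra, at 68.4 and 49.8 FPKM, and Klf15, a regulator of branched-chain breakdown, at 40.7 and 33.1 FPKM, also had overlapping bounds.

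Of related parts of mitochondrial metabolism, fatty acid oxidation had a slightly lower median than the 41 genes (-0.57), and complex I a smaller difference. All 25 genes of fatty acid oxidation lay below 0, with a median of -0.64, 4 genes 2-fold lower (16%) and 3 with separate bounds (12%), near the 12.7% and 11.4% of the 5905 abundant genes. Of 36 complex I subunit genes, 30 lay below 0 and the median was -0.31, with 1 gene (2.78%) 2-fold lower and with separate bounds. After rescaling to the cardiomyocyte markers these medians were 0.018 and 0.34, against 0.086 for the 41 genes and 0.51 for all genes compared. With pooled values the differences between these lists could not be tested.

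RBFOX proteins bind the RNA hexamer written TGCATG in DNA letters, so the 3' UTRs of the 41 genes were searched for it on the sense strand, in the GENCODE transcript with the longest coding sequence. It was found in 3 of 41 genes (7.32%), against 31.3% of the 11088 protein-coding genes compared. The 3' UTRs of the 41 genes were shorter, with a median of 676 bases against 936 bases, and held 0.133 matches per kilobase against 0.349. The genes with a match were Fh1 and Pdha1, with 2 each, and Pdk4, with 1. None of these was among the 10 genes called by either rule, but 3 genes are too few for a comparison. Over all protein-coding genes compared, the median log2 ratio was -0.09 with a match and -0.06 without. Introns were not searched. A match is a description and not a binding site. These sites are shown with the hexamer in capitals, 5′ to 3′ on the transcript strand, with GRCm38 positions:
Fh1, chr1:175601057-175601086, minus strand: tgaaaaccaggcTGCATGttctgctatgta
Fh1, chr1:175600423-175600452, minus strand: aaattagtcattTGCATGaagctccaggat
Pdha1, chrX:160123638-160123667, minus strand: ggagagtaaaatTGCATGcagtttgtacat
Pdha1, chrX:160122940-160122969, minus strand: gtgctgggagacTGCATGccagagcctaca
Pdk4, chr6:5484704-5484733, minus strand: atccaaggattgTGCATGttgggaaaccca

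Promoters were examined because most of the 41 genes shared a direction as deposited. RefSeq promoter windows on GRCm38.p6 were found for 37 of the 41 genes (50 windows), and the 250 bases before each start were searched on both strands for 4 motifs. AAGGTCA, the core of the element bound by the estrogen-related receptors (the family of Esrra and Esrrg), was in 1 of 50 windows (2%), that of Got1, against 4.08% of all 32851 windows. GCATGCGC, a core of the NRF1 element, was in 3 windows (6%, Ogdh and Pccb), against 2.26%, and CCGGAAG, a core of ETS elements, in 3 windows (6%, Auh, Idh3g and Mpc1), against 6.91%. GGGCGG, the GC box, was in 24 windows (48%) against 32.7%. The windows of the 41 genes were also richer in G and C, with a median of 58.8% against 52.4%. Shown are the windows of the genes with the largest differences that met both rules, Auh and Mccc2, and of 2 kinase genes, Pdk1, which met both rules, and Pdk4, the gene with a ratio above 0. Capitals mark any of the 4 motifs, and bases inside the GENCODE gene are left off the 3' end:
Auh, chr13:52929682-52929927, minus strand: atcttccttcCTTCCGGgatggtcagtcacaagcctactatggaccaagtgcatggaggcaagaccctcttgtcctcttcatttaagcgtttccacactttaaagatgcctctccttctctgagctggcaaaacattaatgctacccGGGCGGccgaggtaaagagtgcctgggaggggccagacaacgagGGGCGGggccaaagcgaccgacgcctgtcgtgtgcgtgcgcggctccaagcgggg
Mccc2, chr13:100015640-100015889, minus strand: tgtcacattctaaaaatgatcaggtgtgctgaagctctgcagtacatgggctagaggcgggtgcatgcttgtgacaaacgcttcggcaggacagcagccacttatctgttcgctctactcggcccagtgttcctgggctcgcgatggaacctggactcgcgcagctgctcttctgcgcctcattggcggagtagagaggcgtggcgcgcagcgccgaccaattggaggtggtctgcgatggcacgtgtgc
Pdk1, chr2:71872974-71873223, plus strand: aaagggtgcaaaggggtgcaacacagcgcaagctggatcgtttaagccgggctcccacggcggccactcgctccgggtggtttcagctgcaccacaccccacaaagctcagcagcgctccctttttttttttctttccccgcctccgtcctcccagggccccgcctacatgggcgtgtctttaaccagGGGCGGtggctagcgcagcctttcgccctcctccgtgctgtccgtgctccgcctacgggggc
Pdk4, chr6:5496310-5496528, minus strand: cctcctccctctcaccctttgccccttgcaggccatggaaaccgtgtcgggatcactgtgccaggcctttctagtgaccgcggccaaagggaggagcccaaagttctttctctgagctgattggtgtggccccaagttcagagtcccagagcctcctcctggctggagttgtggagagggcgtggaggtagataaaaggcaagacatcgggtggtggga
The Auh window held an ETS core and GC boxes and the Pdk1 window a GC box, while none of the 4 motifs occurs in those of Mccc2 and Pdk4.

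Some of these values are uncertain because genes share sequence or position. Cuffdiff treated 21 of the 41 genes in a locus with at least 1 other gene, and the exons of 11 overlapped an annotated gene on the opposite strand. The library kit keeps strand, but whether strand was used in counting is not given in the sources used here. More than 5% of the 50-base sequences of 8 genes occurred in transcripts of another gene on either strand: Bckdha, Mpc1, Got2, Aldh6a1, Suclg2, Pdha1, Bcat2 and Pdhb. For Pdhb this was 11.4%, most of it with Gm6123, which stood at 0.860 and 0.418 FPKM. Auh, Mccc2, Ogdh, Idh3a, Pdk1 and Pdk4 were alone in their loci. Idh2 and Pcca, also called by at least 1 rule, were not. The locus of Idh2 held 2 genes, without exon overlap, and that of Pcca held 5. Exons of Pcca overlapped Ggact on the opposite strand, which stood at 12.3 FPKM in control and 3.29 FPKM in overexpressing cells.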

How the data were processed

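Messenger RNA of 4 libraries in 2 groups was compared. Per the file headers, the authors deposited a Cuffdiff gene table with 1 pooled FPKM value, its bounds and a status per group. The submitters' processing notes name STAR 2.4.2a, Cuffdiff 2.2.1, HTSeq and DESeq2 among others, and the builds GRCm38 and mm10. The annotation, normalization mode and level of the bounds are not given in the sources used here. The deposited bounds are other columns in the same FPKM unit. Pooling hides differences between libraries, and the number of unused columns per sample was 0.

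From these FPKM values log2 ratios with a pseudocount of 1 FPKM were computed in Python 3.11.15 (pandas 2.3.3, numpy 2.4.6) over names with a mean of at least 1 FPKM, rows of 110 repeated names being summed. Calls used a 2-fold threshold or separate bounds. No p-value was computed. Calculations were tested on simulated data. Coordinates and transcripts came from GENCODE M21 (GRCm38), where 99.2% of the identifiers were found, and promoters from RefSeq (GRCm38.p6).

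All 41 members were named. Genes of the pathway and regulator lists were named when past both rules, with 6 fixed names; Slc25a11, Pdk3 and single markers were added after their values were seen. Members and lists were chosen with earlier results of these data known. Alternatives covered the pseudocount, filter, threshold, scaling, status, repeated names and the mean.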

Additional observations from a re-analysis of the deposited data

How the results depend on the processing

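No paired analysis was possible because both libraries of a group were merged into 1 value, and for the same reason no library could be left out. The 8 genes 2-fold lower became 20 at a 1.5-fold and 1, Auh, at a 4-fold threshold, where 22.1% and 1.32% of all genes compared were lower. The background share of 10% was 4.78% with a pseudocount of 5 and 2.46% without a filter on low values. The median of -0.57 was -0.42 after rescaling without mitochondrial and the 10 most abundant genes. Rescaling to the cardiomyocyte markers, chosen after seeing the data, turned the median to 0.086 and left 1 gene 2-fold lower and 1 higher. By separate bounds it left 2 genes lower and 1 higher. Of all genes compared, 3.23% were 2-fold lower on that scale and 2.78% had separate bounds with lower values. Among their 2-fold differences on that scale, 12.2% were lower. Over the 20 genes alone in their locus, also chosen after seeing the data, the median was -0.73. Under the other settings the counts stayed within 1.5 times and the median within 0.1. The scalings tried shifted log2 ratios by at most 0.66, and the called gene nearest 0, Dld, had a ratio of -0.85. No gene called by either rule could therefore change sign. The cardiomyocyte scaling left 18 of 41 ratios below 0. Beyond what each setting alters by construction, the cause was not tested. Unknown depth limits low genes such as Pdp1 and Pcx most.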

Other observations

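Ratios differed with the genomic span of genes. Over all genes compared with a GENCODE entry, the median log2 ratio was 0.038 for the 3094 genes up to 10 kb, -0.04 for the 3784 from 10 to 30 kb, -0.11 for the 3324 from 30 to 100 kb and -0.31 for the 1477 above 100 kb. The share 2-fold lower was 6.72%, 7.77%, 11.1% and 20.1% in that order. Across 11679 genes, which share libraries and are not independent replicates, Spearman's rho between span and log2 ratio was -0.16, and it was -0.05 for transcript length over 11088 genes.

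Among the 41 genes the order was less regular, with rho of -0.10 for span and 0.18 for transcript length. The 4 genes up to 10 kb had the lowest median, -0.92, and 1 of them, Pdhb, was 2-fold lower. The 22 genes from 10 to 30 kb had a median of -0.49 and 2 of them, Idh2 and Idh3a, were 2-fold lower. The 11 genes from 30 to 100 kb had a median of -0.85 and 4 of them, Auh, Mccc2, Ogdh and Pdk1, were 2-fold lower. The 4 genes above 100 kb had a median of -0.53. Among them Pcca, at 357 kb the longest of the 41, was 2-fold lower, while Suclg2, at 246 kb, had a log2 ratio of -0.16. The relation was seen in the data before it was computed, and its cause was not tested.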
